A study of Homo sapiens with 4 samples.

Results

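The mitochondrial ribosomal protein genes were taken by symbol: every gene of the table named MRPL or MRPS followed by a number and, for some, a letter from A to C. There were 77 of them among 20329 genes, and all 77 reached the mean level required for testing, which 13928 genes did. By textbook assignment, 26 encode proteins of the small subunit and 50 encode proteins of the large subunit, among them MRPS18A and MRPS30, whose symbols name the other subunit. The product of the remaining gene, MRPS36, is a part of the 2-oxoglutarate dehydrogenase complex.

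The mitochondrial ribosome makes the few proteins encoded by mitochondrial DNA, all of them membrane subunits of the respiratory chain and ATP synthase. Its ribosomal RNAs come from the mitochondrial genome, whereas every one of its proteins is encoded in the nucleus, made in the cytosol and imported. Some of the proteins descend from the bacterial ribosome and others were added in mitochondria. Of the genes here, 46 encode homologs of bacterial ribosomal proteins and 30 encode mitochondria-specific ones.

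Polyadenylated RNA was sequenced from BM1 and LM2, derivatives of the triple-negative breast cancer line MDA-MB-231 that come from bone and lung metastases, respectively. In each line, lentiviral vectors had placed either a non-specific shRNA or an shRNA against hnRNPM, an RNA-binding protein of the nucleus, and the shRNA was stably expressed. The title of the series places the work in alternative splicing during the epithelial-mesenchymal transition; splicing was not analysed here. Each of the 4 groups was 1 library, from 1 stable culture.

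The transcript of HNRNPM fell to 28.4 FPKM in the BM1 knockdown, against 171 in its control, and to 20.3 in the LM2 knockdown, against 132, which left 16.6% and 15.4% of the control level. FPKM counts fragments relative to the length of the gene model and to the total of mapped fragments. Over both lines the difference on the log2(FPKM + 1) scale was -2.59 (SE 0.25, limma, Benjamini-Hochberg adjusted p = 0.00318), so the labels held for the targeted gene. That call was lost with a pseudocount of 0.1 (adjusted p = 0.0550) and whenever 1 library was left out (0.226 to 0.613), and without the filter on low values 0 of 20329 genes were called under the knockdown by limma, with 3735 at an unadjusted p below 0.05. With any 1 library left out, limma called 0 of 13928 genes under the knockdown (860 to 1943 at an unadjusted p below 0.05) and 6 to 28 between the lines, a limit that holds for every call given below. Fits with 1 library left out hold only the term for the knockdown or only that for the line. In them the dropped term and the missing library cannot be told apart. The marker genes of the MDA-MB-231 lineage, VIM, CD44, AXL, CAV1 and MSN, were all high. In the BM1 control they ran from 148 FPKM for CAV1 to 2354 for VIM. Of 5 luminal markers, GATA3 was at most 3.33 FPKM and ERBB2 at most 21.9, and the others were not analysed here. Of markers of other cells, ACTA2 was at most 1.04 FPKM and PDGFRB at most 3.24 (highest in the BM1 knockdown), and PTPRC and PECAM1 were not analysed here. The step structure of low values put the depth at about 22782327 to 41503804 fragments per library, lowest in the BM1 knockdown. Transcripts of the mitochondrial genome made up 9.31% and 12.8% of all FPKM in BM1 (control, knockdown) and 8.80% and 11.8% in LM2.

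With 1 library per group there was no replicate of any group. The tests rest on 1 limma fit over all 13928 genes with terms for line and for knockdown, with 1 residual degree of freedom for each gene, and it borrows the rest of the spread from all genes. Its p-values set a difference against how far the 2 lines, or the 2 treatments, disagree, mostly as pooled over all genes. They do not measure a spread between replicates. MRPL44, with knockdown differences of 0.585 in BM1 and 0.578 in LM2, still had an SE of 0.25. Within 1 line, or between the lines under 1 treatment, differences are given with no p. There, a gene is counted as higher or lower when it differed by at least 1.5-fold on the log2(FPKM + 1) scale. The shares of all genes tested, given below beside calls and counts, are not matched for level. All genes tested had lower median levels than the mitoribosomal genes. Fewer cells of a type and less RNA per cell cannot be told apart in bulk RNA.

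The sequence around the starts of these genes was not used by the choice by symbol. RefSeq promoter windows, from 250 bases before to 50 after the gene start on GRCh38.p14, were matched for 68 of the 77 genes. The letters AAGATGGC, the core of a YY1-type site, stood on either strand in 21 of the 68 genes (30.9%), against 3.52% of the 27305 genes with a RefSeq window, a gene being counted once if any window of it held the letters. The letters CCGGAAGT, an ETS-type site of the kind bound by GABP, stood in 12 (17.6%, against 4.95%), and GCATGCGC, an NRF1-type site, in 6 (8.82%, against 3.68%). CCAAT stood in 23 genes (33.8%, against 39.7%) and TATAAA in 3 (4.41%, against 13.99%). Both strands were searched for these 5 strings, and none of them contains another; 28 genes held the ETS-type or the YY1-type letters and 5 held both. The 27305 genes were not limited to those that reached the level required for testing, so the shares are not set against genes of like level. A match describes the letters only, and no binding was measured.

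The windows of 5 genes are shown because the results below turn on them or on their neighbours, with AAGATGGC and CCGGAAGT, or their reverse complements, in capitals. MRPL50 (chr9:101398569-101398868, minus strand) had the largest average increase under the knockdown. MRPL47 (chr3:179604589-179604888, minus strand) holds both kinds of letters. MRPL46 (chr15:88467339-88467638, minus strand) and MRPS11 (chr15:88467458-88467757, plus strand) lie head to head, and their windows overlap on opposite strands. MRPL30 (chr2:99180934-99181233, plus strand) differed most in opposite directions between the lines and, like MRPS11, has no capitals.
MRPL50: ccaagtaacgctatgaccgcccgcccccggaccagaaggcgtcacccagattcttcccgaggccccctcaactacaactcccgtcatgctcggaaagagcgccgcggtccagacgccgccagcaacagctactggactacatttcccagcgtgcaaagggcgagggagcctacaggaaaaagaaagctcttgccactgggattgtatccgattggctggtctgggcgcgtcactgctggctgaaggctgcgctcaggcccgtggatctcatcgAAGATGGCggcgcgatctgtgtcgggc
MRPL47: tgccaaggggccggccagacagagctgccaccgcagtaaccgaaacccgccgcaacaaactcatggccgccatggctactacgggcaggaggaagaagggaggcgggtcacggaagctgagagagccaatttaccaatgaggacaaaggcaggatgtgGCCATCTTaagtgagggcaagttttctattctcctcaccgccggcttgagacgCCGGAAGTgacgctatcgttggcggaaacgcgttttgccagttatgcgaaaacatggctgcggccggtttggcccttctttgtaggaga
MRPL46: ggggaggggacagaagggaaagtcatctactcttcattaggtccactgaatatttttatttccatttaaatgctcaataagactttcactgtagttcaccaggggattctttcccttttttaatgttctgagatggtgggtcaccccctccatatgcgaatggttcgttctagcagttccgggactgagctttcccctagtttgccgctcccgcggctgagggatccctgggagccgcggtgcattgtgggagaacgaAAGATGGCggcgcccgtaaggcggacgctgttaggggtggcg
MRPS11: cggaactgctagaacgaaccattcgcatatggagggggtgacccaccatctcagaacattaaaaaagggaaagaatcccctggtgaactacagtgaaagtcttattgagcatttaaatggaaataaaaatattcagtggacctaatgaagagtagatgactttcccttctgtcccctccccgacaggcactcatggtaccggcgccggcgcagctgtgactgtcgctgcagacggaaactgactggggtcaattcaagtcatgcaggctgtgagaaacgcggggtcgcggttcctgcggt
MRPL30: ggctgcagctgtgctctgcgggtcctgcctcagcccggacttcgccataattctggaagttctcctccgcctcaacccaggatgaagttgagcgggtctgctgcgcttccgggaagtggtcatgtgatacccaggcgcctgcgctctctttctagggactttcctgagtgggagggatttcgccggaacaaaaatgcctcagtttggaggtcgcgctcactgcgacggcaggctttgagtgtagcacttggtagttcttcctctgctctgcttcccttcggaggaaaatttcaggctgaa

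The mitoribosomal genes spanned 3.90 FPKM (MRPL50 in the BM1 control) to 150.2 FPKM (MRPL14 in the BM1 control). Their median was 35.8 FPKM (control) and 35.0 (knockdown) for BM1 and 33.1 and 33.0 for LM2, against 8.36, 9.02, 8.94 and 8.70 for all genes tested. Summed, they took 0.713%, 0.684%, 0.622% and 0.635% of the FPKM total in the same order. The cytosolic ribosomal protein genes, 84 of which were tested, took 10.7%, 9.41%, 11.8% and 10.1%. The summed share was lower in both LM2 libraries than in both BM1 libraries.

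The gene with the highest mean was MRPL33, a small protein of the large subunit, at 127 and 138 FPKM in the BM1 control and knockdown and at 73.7 and 121 in LM2. MRPL14, a homolog of a conserved bacterial protein at the subunit interface, followed at 150.2 and 120 FPKM in BM1 and 93.6 and 82.4 in LM2. MRPL12, a protein of the flexible stalk that recruits translation factors, was at 119, 91.7, 108 and 102 FPKM. At the other end were MRPL42 (5.43 and 10.9 FPKM in BM1, 4.73 and 3.99 in LM2), MRPS14 (5.24, 7.75, 13.6 and 6.98) and MRPS31 (10.2, 14.3, 6.89 and 5.93). The level of MRPL42 corresponds to about 100 fragments in its lowest library, whereas the median gene of the set had about 769 in its lowest.

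Genes for large-subunit proteins had a median of 40.2, 39.0, 36.2 and 35.7 FPKM over the 4 libraries, and genes for small-subunit proteins 28.3, 26.6, 27.3 and 26.9. Genes for bacterial homologs had a median of 41.9, 41.5, 38.6 and 36.0 FPKM, and mitochondria-specific ones 25.5, 25.6, 25.7 and 23.8. Both orders were the same in all 4 libraries. No test was made of either order, and the levels within each class ranged far more widely than the distance between the class medians.

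**Figure D1:**
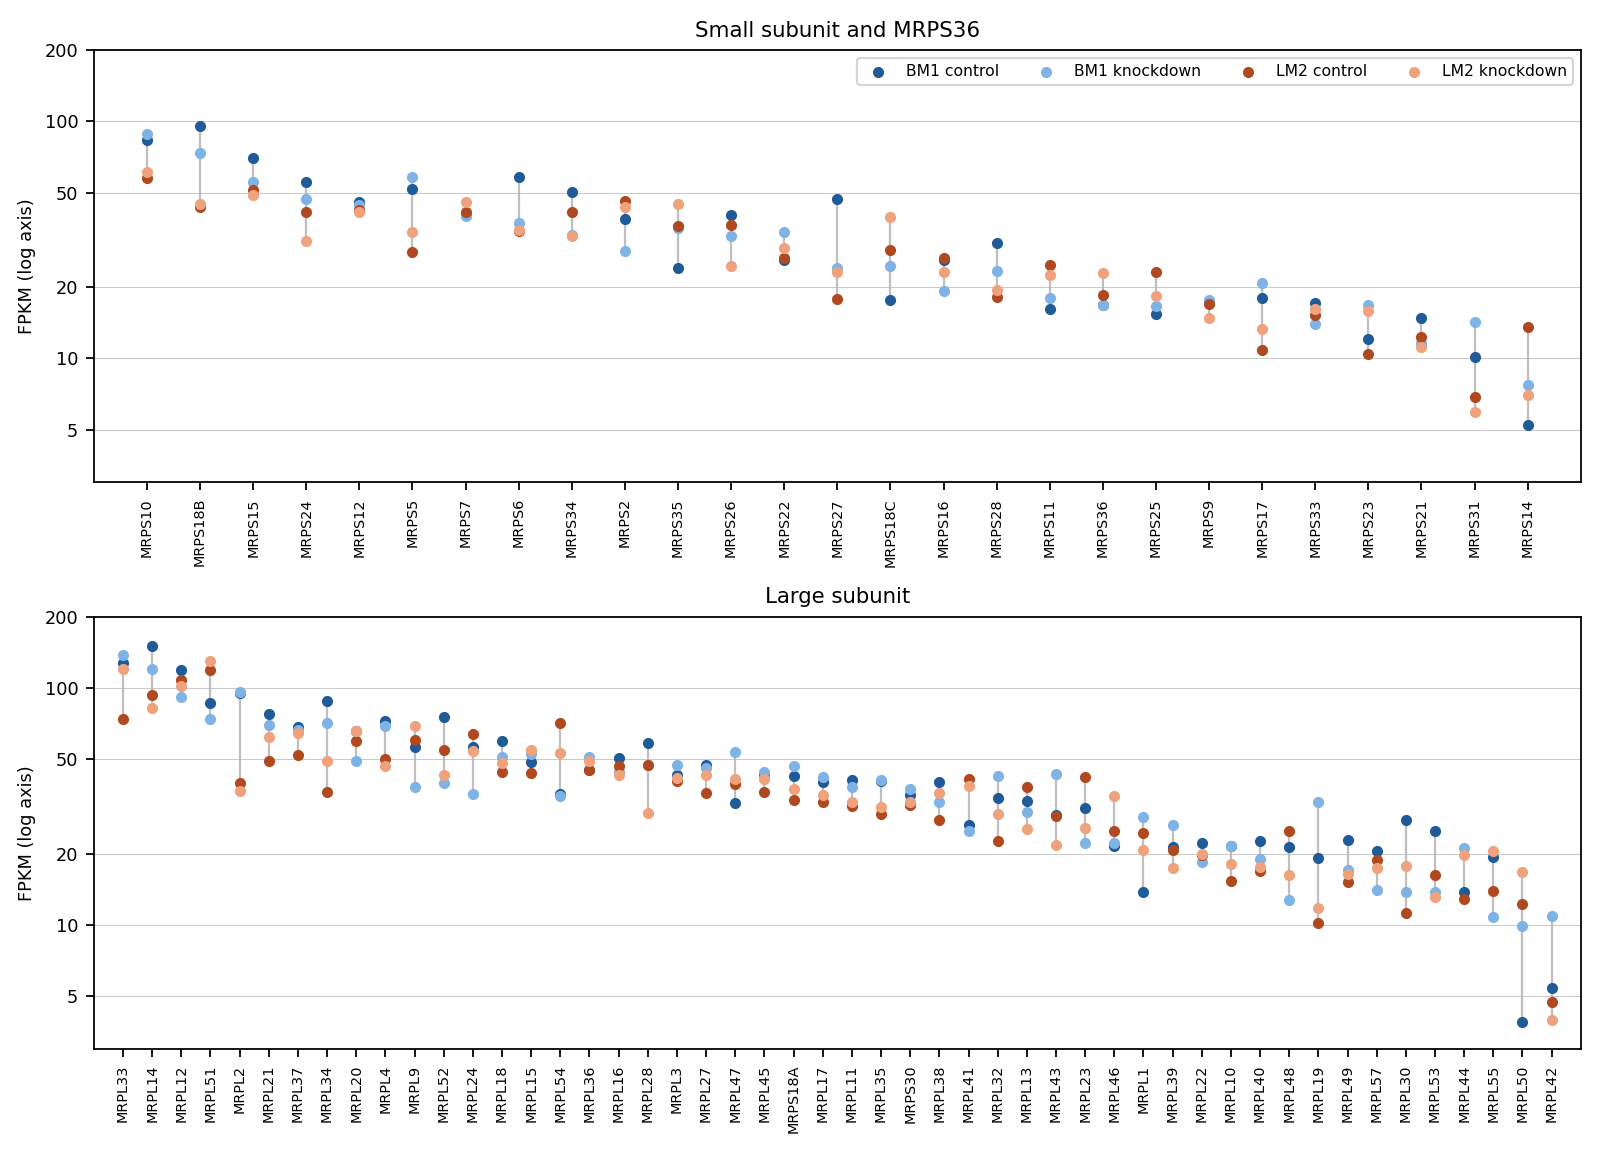
FPKM (log axis) of each mitoribosomal gene in the 4 libraries, small subunit and MRPS36 above and large subunit below, ordered by mean level, with a line joining the lowest and the highest library. The levels run from 3.90 FPKM (MRPL50, BM1 control) to 150.2 FPKM (MRPL14, BM1 control), and MRPL2 shows both BM1 libraries (95.0 and 96.2 FPKM) apart from both LM2 libraries (39.9 and 36.8).

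Under hnRNPM knockdown no mitoribosomal gene passed the test, and the median of the set lay close to 0. Over both lines, 0 of 77 genes were called by limma at an adjusted p below 0.05, where 5.47% of all genes tested were called. At an unadjusted p below 0.05 there were 5 of 77, where all genes gave 24.9%. The median difference was -0.04 on the log2(FPKM + 1) scale, against -0.01 for all genes, with 36 genes above 0 and 41 below. For 70 of the 77 the average difference was under 0.5 in size. Given a median standard error of 0.26 per gene, a shift of that size or less in a single gene was not detectable with these libraries. Larger shifts could be missed as well: MRPL50, at 0.79 (SE 0.28), had an adjusted p of 0.131 (limma). The count of 0 calls therefore does not exclude them.

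The subunits and classes are given side by side, with no test between them. Over both lines the median difference was -0.11 for the small subunit and 0.00 for the large. Line by line, the small subunit had medians of -0.03 in BM1 and -0.01 in LM2, and the large subunit -0.07 and 0.08. Genes for bacterial homologs had medians of -0.07 in BM1 and 0.06 in LM2, and mitochondria-specific ones -0.04 and 0.05. By comparison, cytosolic ribosomal protein genes had medians of -0.22 and -0.18, with 1 of 84 called lower, and nuclear genes of the respiratory chain and ATP synthase had -0.11 and -0.02, with 0 of 75 called by limma and 2 at an unadjusted p below 0.05.

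The largest average increases were in 5 genes. MRPL50, a mitochondria-specific protein of the large subunit, was at 3.90 FPKM in BM1 control cells and 9.93 after knockdown, and at 12.3 and 16.7 in LM2, an average difference of 0.79 (SE 0.28, limma, adjusted p = 0.131, the smallest of the set). Both knockdown libraries were above their own controls, but the BM1 knockdown was still below the LM2 control. MRPL44, which carries a ribonuclease III-like fold, was at 13.7 FPKM in BM1 control cells and 21.1 after knockdown, with 12.8 and 19.7 in LM2, so that both knockdown libraries were above both controls (0.58, SE 0.25, adjusted p = 0.193). MRPS23, a mitochondria-specific small-subunit protein, behaved alike at 12.04 to 16.8 and 10.47 to 15.8 FPKM (0.50). MRPL19 was at 19.2 and 33.0 FPKM in BM1, with 10.2 and 11.8 in LM2 (0.48), and MRPS18C at 17.7 and 24.6 in BM1 and 28.6 and 39.6 in LM2 (0.45). None of the 5 passed the test. Left-out libraries moved 3 of them by over 1.5 times: leaving out the BM1 control gave 0.07 for MRPL50 and leaving out the LM2 control 1.51, MRPL19 was -0.23 without the BM1 knockdown and 1.18 without the LM2 knockdown, and MRPS18C was 0.12 without the BM1 control or the LM2 knockdown and 0.79 without either of the others.

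The largest average decreases were all in large-subunit genes. MRPL48, a mitochondria-specific protein, was at 21.4 FPKM in BM1 control cells and 12.7 after knockdown, with 24.9 and 16.2 in LM2 (-0.65, SE 0.25, limma, adjusted p = 0.158). It was the only one of the 77 to be lower by at least 1.5-fold in both lines, and none was higher by that much in both. MRPL52 went from 75.2 to 39.7 and from 54.6 to 43.0 FPKM (-0.62, adjusted p = 0.194). In both genes the 2 knockdown libraries lay below the 2 controls. MRPL23, a homolog of a bacterial protein near the exit of the peptide tunnel, was at 31.1 and 22.2 FPKM in BM1 and 42.0 and 25.7 in LM2 (-0.58), MRPL53 at 24.99 and 13.8 and at 16.3 and 13.1 (-0.56), and MRPL28 at 58.5 and 47.1 and at 47.2 and 29.8 (-0.48). MRPL53 overlaps CCDC142 on the same strand, so its fragments cannot be fully told from those of that gene. Without the BM1 control the values of MRPL52 and MRPL53 were -0.39 and -0.26, without the LM2 control that of MRPL23 was -0.37, and without the LM2 knockdown that of MRPL28 was -0.16. MRPL44, MRPL48, MRPL50, MRPL52 and MRPL23 were the 5 genes with an unadjusted p below 0.05.

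Taken line by line, BM1 had 6 of the 77 genes higher by at least 1.5-fold and 8 lower, where all genes tested gave 21.0% higher and 16.8% lower. The 6 were MRPL50, MRPL1, MRPL42, MRPL19, MRPL47 and MRPL44, all of the large subunit. The 8 were MRPL30, MRPS27, MRPL52, MRPL53, MRPL55, MRPL48, MRPL24 and MRPS6. MRPS6 overlaps an entry of SLC5A3 on the same strand, which was at 2.09 FPKM in the BM1 control and 24.1 in the BM1 knockdown. The fragments of MRPS6 cannot be fully told from those of that gene. LM2 had 2 higher, MRPL33 and MRPL30, and 4 lower, MRPS14, MRPL23, MRPL28 and MRPL48, where all genes gave 10.7% and 13.9%. The spread of the differences (SD across genes) was 0.44 in BM1 and 0.32 in LM2 for the mitoribosomal genes and 0.75 and 0.59 for all genes tested.

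The lines shared little of these differences. Across the 77 genes, the BM1 difference correlated with the LM2 difference at r = 0.14 (Spearman rho 0.21), against 0.55 for both measures over all genes tested, where genes are not independent replicates and each axis rests on 1 pair of libraries. Of the 77, 23 were higher in both knockdowns and 22 lower in both, whatever the size, where all genes gave 33.0% and 36.2%. The other 32 went in opposite directions. All genes tested were not matched to the 77 for the spread of their differences, which was narrower for the 77 in both lines.

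**Figure D2:**
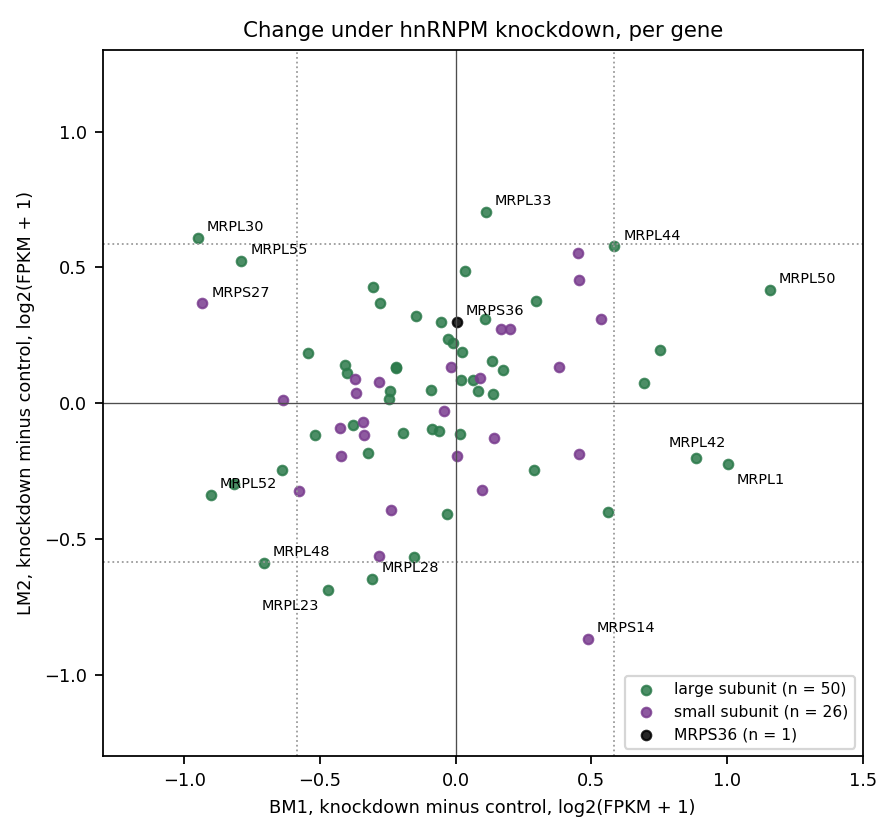
Knockdown minus control on the log2(FPKM + 1) scale in BM1 (x axis) and LM2 (y axis), 1 point per gene, coloured by subunit, with dotted lines at 1.5-fold. MRPL48 is the 1 gene past the dotted lines on the lower left, none is past them on the upper right, and MRPL30 is past them in opposite directions.

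Several genes stood out for opposite differences. MRPL30, a homolog of a bacterial large-subunit protein, was at 27.7 FPKM in BM1 control cells and 13.8 after knockdown, and at 11.3 and 17.7 in LM2. The difference was -0.95 in BM1 and 0.61 in LM2, and the BM1 control was the library that stood highest. MRPS27, a small-subunit protein of the pentatricopeptide repeat family, was also highest in the BM1 control and lowest in the LM2 control, at 46.9, 24.1, 17.8 and 23.2 FPKM (-0.93 and 0.37). MRPL55 was at 19.4, 10.8, 14.0 and 20.5 FPKM (-0.79 and 0.52). In the other direction, MRPS14, a small-subunit protein with a bacterial homolog, was at 5.24, 7.75, 13.6 and 6.98 FPKM (0.49 and -0.87), with the LM2 control as the highest. MRPL1 was at 13.8, 28.7, 24.4 and 20.7 FPKM (1.005 and -0.22), and MRPL42 at 5.43, 10.9, 4.73 and 3.99 (0.89 and -0.20). MRPL43 was at 29.1, 43.4, 28.9 and 21.7 FPKM (0.56 and -0.40). Whether the knockdown differed between the lines in these genes could not be tested, since each line has 1 library per arm. MRPS14 overlaps CACYBP, MRPS27 overlaps PTCD2 and MRPL43 overlaps SEMA4G and C10orf2 on the opposite strand, and whether the counting used strand is not stated in the labels.

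The BM1 difference moved with the base composition of the transcripts. Across the 77 genes it correlated with transcript GC content at r = -0.47 (Spearman rho -0.48), and over all tested genes with a GC value at r = -0.37; the LM2 difference did so at r = -0.24 and -0.16. Among the 26 genes lowest in GC (35.0% to 46.4%), 20 were above 0 in BM1, the median was 0.20, and all 6 genes counted as higher lay there, as did 3 of the 8 counted as lower. Among the 26 highest in GC (54.1% to 71.9%), 4 were above 0, the median was -0.29, none was counted as higher and 4 as lower. The 25 between them held 1 of the lower genes. MRPL50, MRPL1, MRPL42 and MRPL47 have transcript GC contents of 35.0%, 37.0%, 38.4% and 39.2%, respectively. With the trend over all genes in GC content and length removed, 1 gene of the set, MRPL43, was counted as higher in BM1 and 4 (MRPL30, MRPS27, MRPL22 and MRPL48) as lower, in place of 6 and 8. The part of GC content in the BM1 values was not tested further.

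**Figure D3:**
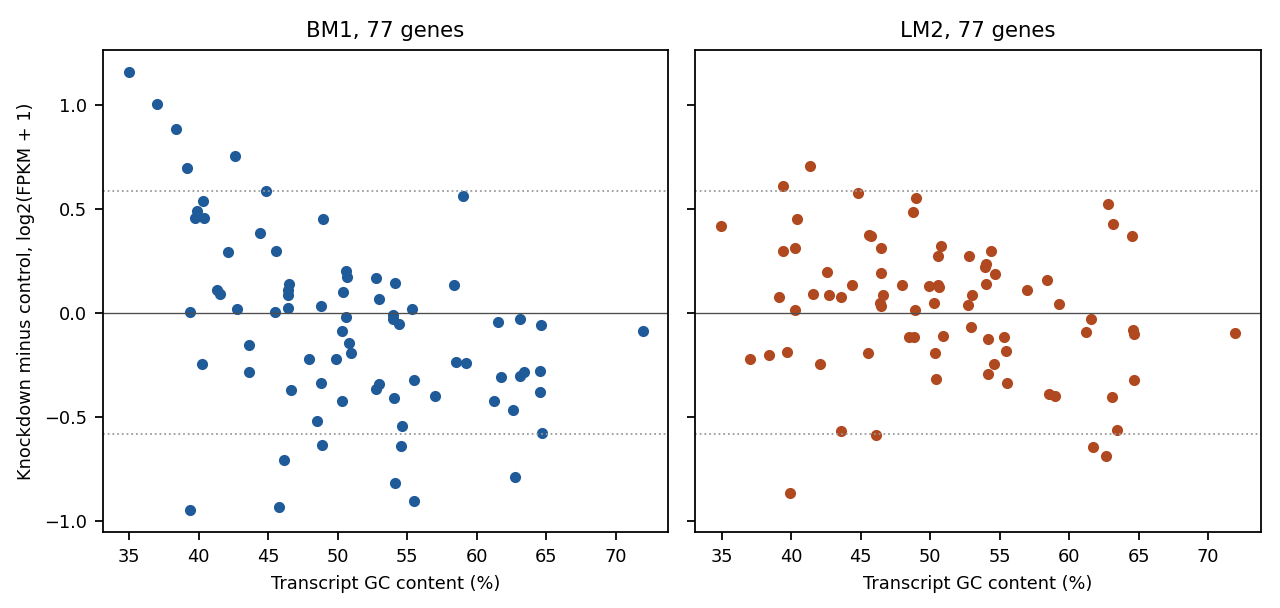
Knockdown minus control on the log2(FPKM + 1) scale against transcript GC content (%), 1 point per gene, BM1 on the left and LM2 on the right, with dotted lines at 1.5-fold. In BM1 the values fall from left to right (r = -0.47) and all 6 genes above the upper line have a GC content below 46.4%, whereas in LM2 the slope is weaker (r = -0.24).

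The derivatives were then compared with each other, LM2 against BM1, over both treatments. In this comparison 1 of the 77 genes was called by limma, where 4.35% of all genes were. At an unadjusted p below 0.05 there were 14, where all genes gave 22.4%. The median difference was -0.16, against -0.01 for all genes tested, with 53 genes below 0 and 24 above. The small subunit had a median of -0.14 and the large subunit -0.19.

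The called gene was MRPL2, the homolog of a bacterial protein at the peptidyl transferase centre. It was at 95.0 and 96.2 FPKM in the BM1 control and knockdown and at 39.9 and 36.8 in LM2. Both LM2 libraries were below both BM1 libraries, by -1.297 (SE 0.25, limma, adjusted p = 0.0269), and knockdown minus control was 0.02 in BM1 and -0.11 in LM2. The table places MRPL2 (ENSG00000112651.11) at chr6:43021767-43027544 on the minus strand, inside the span of KLC4, which lies on the plus strand and was lower in LM2 as well (14.8 and 9.80 FPKM in BM1, 5.22 and 3.46 in LM2, -1.31, adjusted p = 0.0258). The levels of MRPL2 are several times those of KLC4 in every library. The call was lost with a pseudocount of 0.1 (limma, adjusted p = 0.104). It was also lost whenever 1 library was left out, with only the term for the line kept. In those fits the difference itself stayed between -1.35 and -1.24.

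Next in order was MRPL19, a bacterial-type protein of the large subunit, at 19.2 and 33.0 FPKM in BM1 and 10.2 and 11.8 in LM2 (-1.13, SE 0.27, adjusted p = 0.0529). It shares its locus with GCFC2 on the opposite strand and with RP11-342K6.1 and RP11-342K6.2 on its own, so its value is uncertain by the share of their fragments. MRPS18B was at 95.3 and 73.6 FPKM in BM1 and 43.6 and 44.8 in LM2 (-0.91, adjusted p = 0.0887). MRPL34 was at 88.4 and 71.3 and at 36.4 and 49.3 (-0.89), and MRPS31 at 10.2 and 14.3 and at 6.89 and 5.93 (-0.82). In all 4 genes both LM2 libraries were below both BM1 libraries. Without the BM1 knockdown the value of MRPL19 was -0.75.

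The genes higher in LM2 were led by MRPL50, at 3.90 and 9.93 FPKM in BM1 and 12.3 and 16.7 in LM2 (1.07, SE 0.28, limma, adjusted p = 0.0728). MRPL54 was at 35.8 and 35.0 and at 71.1 and 53.4 FPKM (0.78), and MRPS18C at 17.7 and 24.6 and at 28.6 and 39.6 (0.66). MRPL51 was at 86.6 and 74.2 and at 119 and 130 (0.62), and MRPL41 at 26.5 and 24.9 and at 41.1 and 38.4 (0.61). In each of the 5 both LM2 libraries were above both BM1 libraries, and none passed the test. Without the BM1 control the values of MRPL50 and MRPS18C were 0.49 and 0.44.

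Between the control libraries alone, 6 of the 77 genes were higher and 15 lower in LM2 by at least 1.5-fold, where all genes gave 19.1% and 14.9%. Between the knockdown libraries 9 were higher and 9 lower, where all genes gave 12.6% and 15.1%. Whatever the size, 45 of the 77 were lower in LM2 under both treatments and 17 higher, where all genes gave 34.5% and 32.0%. Among the 38 genes that overlap no other listed gene, 4 were higher and 1 lower in LM2 between the control libraries, so all but 1 of the 15 lower genes share their locus.

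These differences between the lines went along with the position of the genes in the genome. For each gene the median difference of the other tested genes within 2 Mb was computed, from 5 to 121 genes. Across the 77, the difference of the gene itself correlated with that median at r = 0.80 (Spearman rho 0.78), and at r = 0.80 with overlapping neighbours left out. For the other tested genes the same measure gave r = 0.46 (n = 13539). Those genes were not matched to the 77 for level or spread. Between the control libraries the SD of the differences was 0.71 for all genes tested and 0.54 for the 77. All points come from the same 4 libraries, and nearby genes share neighbours. The relation was there in the controls alone (r = 0.67, other tested genes 0.43) and in the knockdowns alone (r = 0.66, other tested genes 0.41). The knockdown differences over both lines gave r = 0.22 for the 77 and for the other tested genes. Line by line, the 77 gave 0.25 in BM1 and 0.01 in LM2, and the other tested genes 0.29 and 0.09. The sign was that of the neighbours for 58 of the 77. That share was not computed for the other tested genes, so the count is not read as a trait of these genes.

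Chromosomes 6 and 9 are described as examples, chosen after their values were seen. The 5 genes on chromosome 6 up to 60 Mb, MRPL2, MRPS18B, MRPL14, MRPS10 and MRPS18A, were all lower in LM2 under both treatments, with a median of -0.61. The 422 other tested genes of that stretch had a median of -0.45, while the 280 beyond 60 Mb had 0.11 and MRPL18, which lies there, had -0.25. The 3 genes on chromosome 9, MRPL50, MRPL41 and MRPS2, were all higher in LM2 under both treatments, with a median of 0.61 against 0.52 for the 526 other tested genes of the chromosome. MRPL14, for example, was at 150.2 and 120 FPKM in BM1 and 93.6 and 82.4 in LM2, and MRPS2 at 38.6 and 28.5 and at 46.3 and 43.4. Without chromosomes 6 and 9, the correlation over the remaining 68 genes was 0.75. DNA copy number was not measured in these libraries, and its part in the differences was not tested.

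**Figure D4:**
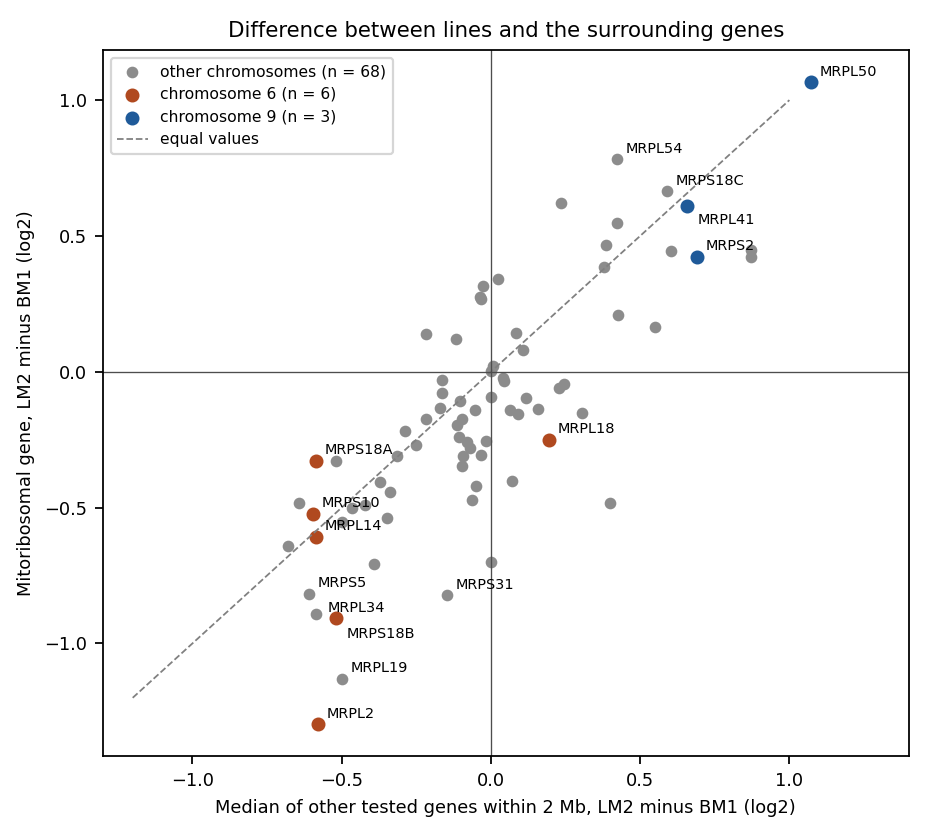
LM2 minus BM1 over both treatments on the log2(FPKM + 1) scale for each mitoribosomal gene (y axis) against the median of the other tested genes within 2 Mb (x axis), with the dashed line at equal values. Chromosome 6 genes up to 60 Mb sit at the lower left, the 3 chromosome 9 genes at the upper right, and MRPL2 (-1.297) lies below its neighbours (-0.58).

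MRPL50 matched its neighbours (1.07 for both), whereas MRPL2, MRPL19 and MRPS31 were lower than theirs, which had medians of -0.58, -0.50 and -0.15. Over the set, 51 of the 77 were below the median of their neighbours, by a median of -0.08. No such share was computed for the other tested genes.

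Many of these genes have a close partner that runs the other way. In the coordinates of the table, 19 of the 77 (24.7%) have a non-overlapping gene that starts within 1000 bases on the other strand and runs the opposite way. The share was 12.4% of all genes tested. Pairs that overlap at their starts, such as MRPL32 and PSMA2, were not counted, so the shares leave out such partners. Several such partners also encode mitochondrial proteins: NDUFS6 starts 34 bases from MRPL36 and NDUFB5 36 bases from MRPL47, both being subunits of respiratory complex I. MRPL46 and MRPS11, of the large and the small subunit, start 34 bases apart in these coordinates. The starts behind their printed promoter windows come from RefSeq and lie further apart. MRPL46 was at 21.5, 22.1, 24.8 and 35.2 FPKM (BM1 control and knockdown, then LM2), and MRPS11 at 16.2, 17.97, 24.7 and 22.6. Both were higher in LM2 under both treatments (averages of 0.42 and 0.45), as were their other neighbours, with a median of 0.87.

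Partners did not always go the same way. MRPL50 lies 259 bases from ZNF189, a zinc finger gene that was higher in LM2 (1.24 and 2.75 FPKM in BM1, 5.01 and 6.57 in LM2, 1.22, limma, adjusted p = 0.0388) and whose average under the knockdown was 0.54. MRPL30 lies 21 bases from MITD1, which was at 12.1 and 22.2 FPKM in BM1 and 13.3 and 16.9 in LM2. In BM1, MITD1 was thus higher in the knockdown library and MRPL30 lower. MRPL47 was at 32.8 and 53.7 FPKM in BM1 and 39.2 and 41.4 in LM2, and its partner NDUFB5 at 34.5 and 28.04 and at 33.6 and 33.0. In all, 39 of the 77 overlap another listed gene, 15 of them on the same strand, where 55.4% of all genes tested overlap another, and for these the fragments may be split between the genes. The table also lists 7 mitoribosomal pseudogenes, none above 5.63 FPKM.

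The MRPS18 genes are 3 paralogs. MRPS18A belongs to the large subunit and the other two to the small, and only MRPS18C is counted here as the bacterial homolog, with MRPS18A and MRPS18B among the mitochondria-specific proteins. MRPS18A was at 42.7 and 46.9 FPKM in BM1 and 33.6 and 37.5 in LM2, MRPS18B at 95.3, 73.6, 43.6 and 44.8, and MRPS18C at 17.7, 24.6, 28.6 and 39.6. The order MRPS18B, MRPS18A, MRPS18C held in the first 3 of these libraries but not in the LM2 knockdown, where MRPS18C was above MRPS18A. MRPS18A and MRPS18B were lower in LM2 and MRPS18C higher, as were the genes around each of them (-0.59, -0.52 and 0.59). MRPS30, a large-subunit protein, was even at 35.4, 37.6, 32.1 and 33.1 FPKM. MRPS36, the dehydrogenase component, was at 16.8, 16.9, 18.5 and 23.0.

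Some mitoribosomal proteins carry other symbols. Of 6 listed, DAP3, CHCHD1, AURKAIP1, PTCD3, ICT1 and GADD45GIP1, 0 were called by limma in either comparison (0 under the knockdown and 1 between the lines at an unadjusted p below 0.05), and the medians under the knockdown were 0.00 in BM1 and 0.07 in LM2. PTCD3, a small-subunit protein, had the largest average increase, at 22.5 and 36.6 FPKM in BM1 and 24.8 and 28.02 in LM2 (0.42). DAP3, which binds GTP in the small subunit, had the largest decrease, at 59.6, 63.9, 96.0 and 67.7 (-0.20).

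The steps around the mitoribosome are given list by list. Over all genes tested, limma called 5.47% under the knockdown and 4.35% between the lines. None of the 14 translation factors was called by limma under the knockdown or between the lines, with 2 and 3 at an unadjusted p below 0.05. GUF1, a translation factor of the GTPase family, had the largest average increase, at 9.76 and 21.1 FPKM in BM1 and 9.80 and 14.4 in LM2 (0.78, adjusted p = 0.122), and MTFMT, which formylates the initiator methionine, the largest decrease (-0.51). Of 24 genes for assembly and ribosomal RNA modification, 0 were called by limma under the knockdown (2 at an unadjusted p below 0.05) and 2 were called lower in LM2. These were RBFA, an assembly factor of the small subunit, at 20.6 and 15.96 FPKM in BM1 and 7.22 and 6.69 in LM2 (-1.27, limma, adjusted p = 0.0308), and MPV17L2, at 33.8 and 39.7 and at 16.8 and 12.2 (-1.29, adjusted p = 0.0376). Under the knockdown, MTERF3 (0.70) and NSUN4 (-0.68) had the largest averages of that list and did not pass.

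Of 15 genes for mitochondrial transcription and RNA metabolism, 1 was called, and higher, in the knockdown, where 5.47% of all genes were called. HSD17B10, a subunit of mitochondrial ribonuclease P as well as a dehydrogenase, rose in BM1 (22.0 to 53.4 FPKM) and in LM2 (32.8 to 99.8 FPKM) (1.41, SE 0.26, limma, adjusted p = 0.0219). In that list 7 of 15 were at least 1.5-fold higher in BM1 and none lower (all genes 21.0% and 16.8%), and in LM2 1 was higher and 1 lower. LRPPRC, which binds mitochondrial messenger RNA, was at 28.5 and 75.4 FPKM in BM1 and 32.3 and 41.4 in LM2. Of 17 mitochondrial aminoacyl-tRNA synthetases none was called by limma under the knockdown (1 at an unadjusted p below 0.05), and VARS2 was called lower in LM2 (22.9 and 16.1 FPKM in BM1, 9.86 and 7.27 in LM2, -1.09, adjusted p = 0.0480). HARS2 (0.56) and FARS2 (-0.91) had the largest averages under the knockdown.

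Of 18 genes of the import machinery, through which every mitoribosomal protein passes, 1 was called under the knockdown, where 5.47% of all genes were. TOMM6, a small subunit of the outer-membrane translocase, rose in BM1 (28.8 to 102 FPKM) and in LM2 (80.1 to 214 FPKM) (1.60, limma, adjusted p = 0.0158), and it was also higher in LM2 than in BM1 (adjusted p = 0.0347). TOMM5, another small subunit of the same translocase, was at 64.1 and 25.5 FPKM in BM1 and 47.8 and 29.6 in LM2 (-0.99, adjusted p = 0.0713). Of 8 tested regulators of mitochondrial genes, 1 was called under the knockdown. MYC, a transcription factor known to drive ribosome production, rose in BM1 (2.60 to 22.2 FPKM) and in LM2 (1.53 to 18.8 FPKM) (2.83, SE 0.26, adjusted p = 0.00304), while NRF1 had the largest decrease of the list (-0.52). GABPA and YY1, whose kinds of sites were searched for in the promoter windows, did not pass the test. GABPA was at 2.52 and 5.09 FPKM in the BM1 libraries and 4.63 and 5.78 in LM2, and YY1 at 36.4, 37.2, 22.3 and 21.1.

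The ribosomal RNAs themselves were read from a polyadenylated library and are given for comparison only. MT-RNR1, of the small subunit, was at 555 and 684 FPKM in BM1 and 912 and 773 in LM2, and MT-RNR2, of the large subunit, at 2461 and 4557 and at 3669 and 5020. The 13 mitochondrial messenger RNAs, the templates of the mitoribosome, had a median average of 0.52 under the knockdown and 0 of 13 were called by limma (6 at an unadjusted p below 0.05), with MT-CYB highest (958 to 1986 FPKM in BM1, 1044 to 1885 in LM2, 0.95, adjusted p = 0.0643).

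The mean of the 77 genes, each centred on its own log2(FPKM + 1) average, was 0.10 and 0.04 for BM1 (control, knockdown) and -0.08 and -0.06 for LM2. Outside the set, the 5 genes whose centred values lay closest to this profile over the 4 libraries were GCC1, RP11-77H9.2, STARD13, CTIF and ARHGAP35, with root mean square distances of 0.00901 to 0.0145. GCC1, the nearest, was at 16.9, 15.96, 14.8 and 15.1 FPKM.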

How the data were processed

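The authors deposited 1 table of FPKM values per gene, per the labels, with 1 column per library, and the labels' protocols give stranded paired-end libraries of polyadenylated RNA. STAR 2.5.3a, Cuffdiff 2.2.1 and GRCh37 are named in the submitters' processing notes, with no role given. Neither they nor the labels say whether the counting used strand. Of 20369 entries, 40 with repeated gene IDs were left out. Genes averaging 1 FPKM or more were analysed as log2(FPKM + 1), a scale that understates changes of low genes, with limma 3.58.1 in R 4.3.3 (terms for line and knockdown, Benjamini-Hochberg over 13928 genes, threshold 0.05). The knockdown was paired with its control by cell line. Depth was estimated from the steps of low FPKM values; 36.0% to 43.8% of these lay within 0.02 of whole fragments, so no count test was run. GC content and length come from GENCODE 29, matched by ID for 13723 tested genes, and promoters from RefSeq. GC trends were removed with mgcv 1.9.3. The scripts were tested on simulated data. Genes were named by rule: called ones, the 5 largest average changes each way per comparison, the 3 largest opposite changes each way, the 3 highest and lowest means, paralogs, and called or extreme genes of each list; MRPL43, MRPL46, MRPL47, MRPS11 and other positional examples were chosen after their values were seen. Members and lists were chosen with earlier results of these data known. Alternatives covered pseudocount, filter, scaling, trend, fold rule, overlap and left-out libraries. With a library left out, the fit kept only the term of the comparison itself, line or knockdown.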

Additional observations from a re-analysis of the deposited data

Results flagged for a closer look

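MRPL30, a large-subunit protein gene, differed by at least 1.5-fold in opposite directions in the lines. Knockdown minus control was -0.9504 in BM1 (27.7 to 13.8 FPKM) and 0.6093 in LM2 (11.3 to 17.7 FPKM) on the log2(FPKM + 1) scale. With 1 library per arm the difference between the lines was not tested. It was the only one of the 77 mitoribosomal genes with such a pattern, which 133 of all 13928 tested genes showed. The gene overlaps RP11-111H13.1 on the same strand, which was at 0.101 and 1.64 FPKM in the BM1 control and knockdown and at 0.736 and 0.663 in LM2. The part of this overlap in the values of MRPL30 was not tested.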

How the results depend on the processing

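No paired analysis was possible because the groups hold 1 library each and share no 2 replicate numbers; this concerns replicate numbers only, since the fit itself matches each knockdown with its control through the line term. In the comparison of LM2 with BM1 the 1 called gene became 0 with a pseudocount of 0.1, no filter, quantile normalization or no treatment term. Counting only genes without overlaps also gave 0, as did leaving out chromosome 6, an alternative chosen after seeing the data. Both drop MRPL2, the called gene, from the set without a new fit, so their count was fixed in advance. The count became 2 (MRPL2 and MRPL19) at a mean FPKM of at least 5, with the GC and length trend removed, or with an intensity trend. With 1 library left out and only the line term kept, the median ranged from -0.19 to -0.13. The knockdown count stayed at 0 of 77 in all settings run, and its median was 0.02 with the GC and length trend removed and ranged from -0.13 to 0.10 with 1 library left out. Counts past 1.5-fold moved with the threshold: at 2-fold 2 (BM1), 0 (LM2), 7 (controls) and 4 (knockdowns), under the lower alternative 35, 24, 43 and 35. The BM1 count was 5 with the GC and length trend removed, and the count between controls 5 among genes without overlaps. The LM2 median was -0.0267 among genes without overlaps, and the median between knockdowns -0.0365 with size factors, in place of -0.10. MRPL19 under the knockdown ranged from -0.2284 (without the BM1 knockdown) to 1.1813 with 1 library left out. HNRNPM lost its call with a pseudocount of 0.1, no filter, quantile normalization, no line term or any library left out. Over all genes, calls ranged from 0 (no filter, quantile normalization, no line term, any library left out) to 888 (intensity trend) under the knockdown and from 0 to 716 between the lines, in place of 762 and 606. The calls of MYC, HSD17B10 and TOMM6 under the knockdown were therefore lost in those settings, and every call between the lines without the filter (limma, 3735 and 3634 genes at an unadjusted p below 0.05). Apart from MRPL2 and MRPL19, the mitoribosomal genes recomputed singly kept their direction and their side of the threshold. The causes were not tested. By the depth estimate, each of the 77 genes had at least about 100 fragments in its lowest library.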
